A study of Homo sapiens with 12 samples.

Results

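The 43 genes described here encode the enzymes and transporters of glycolysis, the proteins that sense oxygen through the hypoxia-inducible factors (HIF), and well-known targets of those factors. They were chosen by name, with earlier results of these data known. All 43 were found among the 54261 genes of the total RNA count table. A filter on low counts left 41 of them among 17511 tested genes. HK1 and CA9 did not pass it.

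Levels were compared between parental HCT116 cells, an established human colorectal carcinoma line, and HCT116oxR, a line derived from it by growth in oxaliplatin, a platinum compound that crosslinks DNA. Selection started at 0.1 µmol/L and was stepped up to 5 µmol/L, which was kept for 1 year. Parental cells are the untreated control, and the labels do not say whether the drug was in the medium when HCT116oxR cells were harvested. The oxygen and glucose supply of the cultures is not given in the sources used here. Each line gave 3 total RNA and 3 small RNA libraries from cultures grown and harvested separately. HCT116oxR is 1 selected line, so the tests measure the spread between cultures of 2 lines and not between independent selections.

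Glycolysis splits glucose into pyruvate in the cytosol. Glucose enters through GLUT transporters, and pyruvate is either reduced to lactate, which leaves through monocarboxylate transporters, or enters mitochondria, where pyruvate dehydrogenase commits it to oxidation. When oxygen is plentiful, prolyl hydroxylases (the EGLN genes) mark HIF alpha subunits for destruction by the VHL ubiquitin ligase. When oxygen is scarce the alpha subunits persist, pair with ARNT and bind a short core sequence in hypoxia response elements, many of them next to glycolytic genes.

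Levels are given in CPM, counts scaled to the size of the library. Total RNA libraries held 11950069 to 13558077 counts, and across genes the log2 CPM of libraries from 1 line had a Pearson's r of 0.987 to 0.989. Of the 12 colorectal epithelial markers examined, 9 were tested, and their summed level was 3222 to 3317 CPM in parental and 3847 to 3918 CPM in HCT116oxR libraries. CDX1 and VIL1 were at or near 0 counts in both lines. Among 17 markers of leukocytes, endothelium, fibroblasts, hepatocytes and red cells, PTPRC, CD3E, HBB and HBA1 had 0 counts in every library. The summed level of the 17 was 70.1 to 84.8 CPM in parental and 54.6 to 59.8 CPM in HCT116oxR libraries. The 4 that were tested were COL1A1 (mean 53.5 CPM in parental and 43.3 CPM in HCT116oxR), CD68 (11.8 and 5.57 CPM), COL1A2 (5.95 and 4.10 CPM) and ITGAM (2.55 and 1.28 CPM). COL1A1, CD68 and ITGAM were lower in HCT116oxR (edgeR, adjusted p below 0.05), and COL1A2 did not pass. The part of these markers in the results below was not tested.

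Some promoter sequences show the HIF core motif that many of these genes are known for. The motif was searched as ACGTG or GCGTG on either strand, in windows from 250 bases before to 50 bases after each annotated transcription start (RefSeq, GRCh38.p14), and 37 of the 43 genes had at least 1 window. Of the 67 windows of these genes, 45 (67.2%) held the motif, against 48.4% of all 35116 windows in the table and 59.7% of the windows of tested genes. For ACGTG alone the shares were 37.3%, 21.4% and 25.0%. The windows of the genes that rose held the motif in 65.6% (21 of 32) and those of the other genes here in 68.6% (24 of 35). The following stretches of 60 bases, each upstream of an annotated start, are shown because the motif stands in them singly or in clusters. For PDK1 and SLC16A3 that start is not the first of the gene, and the stretch lies inside the gene as annotated. They are written 5′ to 3′ on the strand of the gene, with the motif in capitals. A match is a description of the letters and not evidence of binding.
ALDOC (chr17:28576900-28576959, minus strand): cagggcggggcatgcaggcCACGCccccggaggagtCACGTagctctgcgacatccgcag
ENO2 (chr12:6914434-6914493, plus strand): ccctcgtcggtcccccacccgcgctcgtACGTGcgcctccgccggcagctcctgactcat
PGK1 (chrX:78104023-78104082, plus strand): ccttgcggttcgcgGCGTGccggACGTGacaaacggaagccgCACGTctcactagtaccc
LDHA (chr11:18394455-18394514, plus strand): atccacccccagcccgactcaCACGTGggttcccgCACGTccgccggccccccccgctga
PDK1 (chr2:172556030-172556089, plus strand): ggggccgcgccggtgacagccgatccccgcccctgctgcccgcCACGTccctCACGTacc
SLC16A3 (chr17:82228953-82229012, plus strand): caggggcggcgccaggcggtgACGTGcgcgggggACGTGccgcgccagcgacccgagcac
BNIP3 (chr10:131982015-131982074, minus strand): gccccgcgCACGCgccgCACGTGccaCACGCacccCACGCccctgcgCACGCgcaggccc
PGK1 holds 3 separate capital runs and BNIP3 holds 5, and ENO2 holds 1.

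Across the set, 24 of the 41 tested genes rose in HCT116oxR and 5 fell, while 12 were not past the threshold (edgeR quasi-likelihood test with Benjamini-Hochberg adjustment over all tested genes, adjusted p below 0.05). The background is high in this comparison: 44.1% of all tested genes passed, 22.3% upward and 21.8% downward. Of the genes described here 70.7% passed, 58.5% upward and 12.2% downward. Because well-covered genes pass more readily, the shares among genes whose average log2 CPM was 5 or more are also given: 24 of 32 genes here (75%) against 60.6% of all genes at that level. The median log2 fold change (HCT116oxR over parental) was 0.22 for the set and -0.00 for all tested genes.

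Most of the changes were small. Among the 29 genes that passed, 21 changed by less than 1.5-fold. Thus 8 of the 41 tested genes passed with a change of at least 1.5-fold. Of all tested genes 2988 of 17511 did so, or 17.1% (9.54% upward and 7.52% downward). SLC2A3, EGLN3 and SLC2A1 rose at least 2-fold (4.88% of all tested genes did) and no gene of the set fell that far (3.83%). Libraries of the lines did not overlap for 30 of the 41 genes, against 50.5% of all tested genes. In all, these 43 genes took 1.26% to 1.29% of the counts of a parental library and 1.32% to 1.35% of those of an HCT116oxR library. In bulk RNA, a change in every cell and a change in a share of the cells cannot be told apart.

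**Figure D1:**
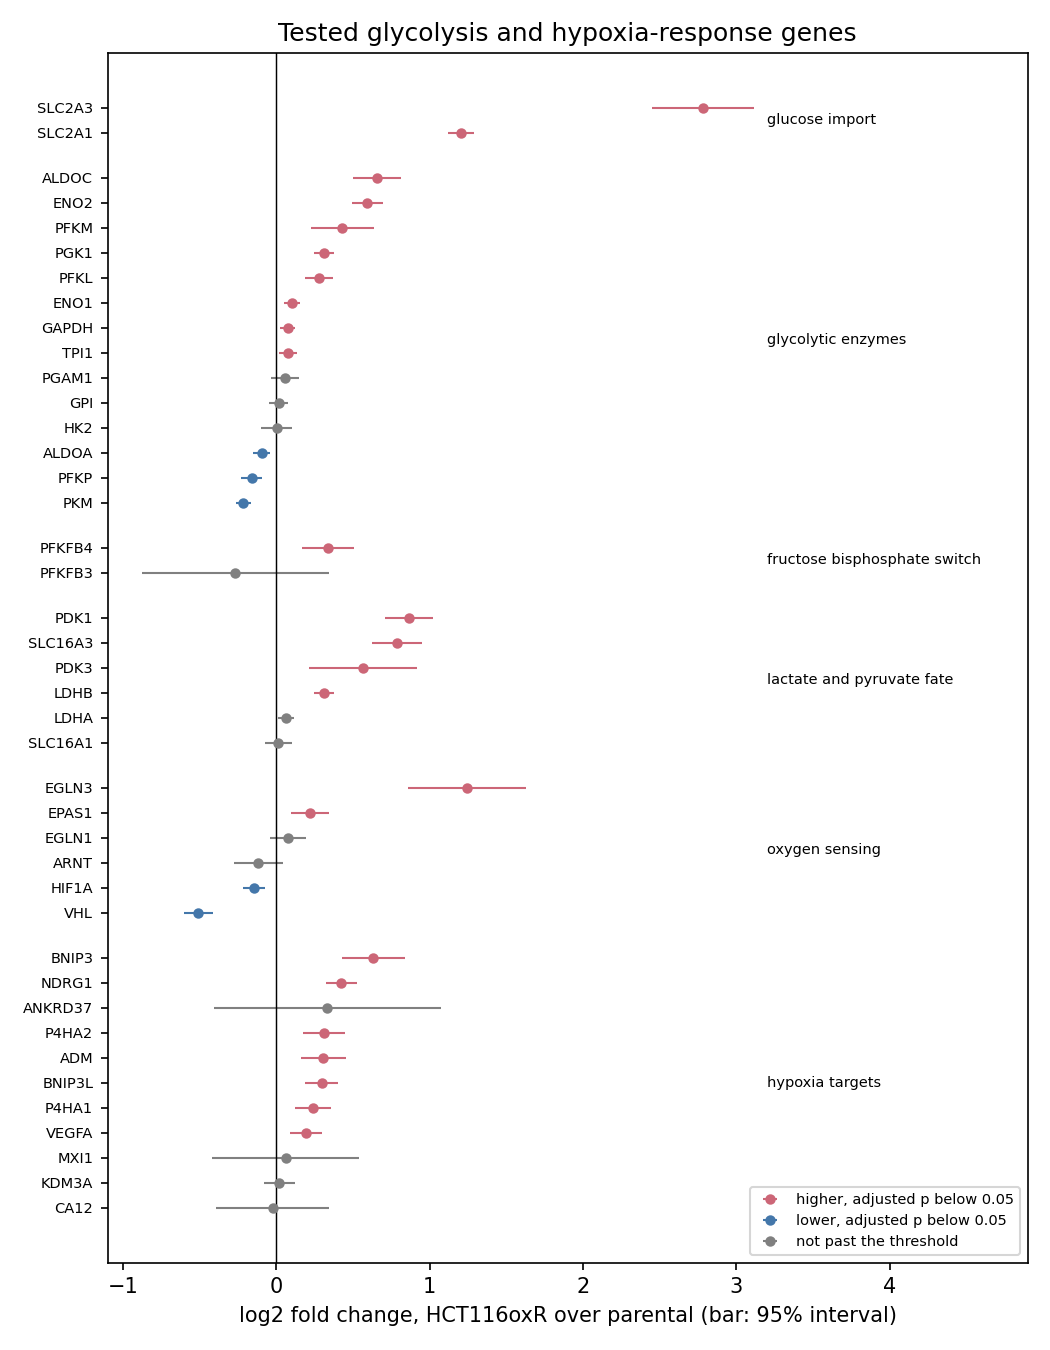
Log2 fold change of HCT116oxR over parental cells for the 41 tested genes (points) with 95% intervals (bars), grouped by role and coloured by the edgeR call. Both glucose transporter genes lie to the right of all glycolytic enzyme genes, and VHL lies farthest to the left at -0.51.

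Both glucose import genes rose by more than 2-fold. SLC2A1 encodes GLUT1, the glucose transporter of most tissues, and SLC2A3 encodes GLUT3, a transporter with high affinity that is typical of neurons. SLC2A1 (chr1:42925353-42958868, GRCh38) stood at 105, 101 and 107 CPM in the parental libraries and 237, 251 and 232 CPM in the HCT116oxR libraries. The lines were far apart, with a rise of 2.31-fold (log2 fold change 1.21 ± 0.04, SE, n = 3 per line, adjusted p = 6.65e-52). SLC2A3 (chr12:7919230-7936187) stood at 2.49, 2.69 and 3.48 CPM in the parental libraries and 20.4, 19.9 and 19.3 CPM in the HCT116oxR libraries, which is 6.87-fold higher (2.78 ± 0.17, adjusted p = 3.26e-31). It went from barely covered, with 108 counts over the parental libraries, to 780 counts in HCT116oxR. SLC2A3 has near-identical relatives that could share its reads: the pseudogene SLC2A3P1 had 411, 402 and 446 counts in the parental and 494, 456 and 510 in the HCT116oxR libraries (log2 fold change 0.15, adjusted p = 0.158), and its neighbour SLC2A14 had 2 counts in 1 library and 0 in the others.

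The glycolytic enzyme genes split within their families. Of 14 tested enzyme genes 8 rose and 3 fell, with a median log2 fold change of 0.07. That is 78.6% past the threshold, against 44.1% of all tested genes (22.3% upward and 21.8% downward). ALDOC and ENO2, the brain-type forms of aldolase and enolase, rose the most. ALDOC stood at 31.8, 30.6 and 34.0 CPM in the parental libraries and 49.9, 54.0 and 48.0 CPM in the HCT116oxR libraries, 1.58-fold higher (0.66 ± 0.08, adjusted p = 2.62e-12). ENO2 stood at 94.2, 93.4 and 88.5 CPM in the parental libraries and 137, 145 and 135 CPM in the HCT116oxR libraries, 1.51-fold higher (0.59 ± 0.05, adjusted p = 2.00e-20). For both genes every HCT116oxR library lay above every parental library. Their ubiquitous counterparts barely moved, with ALDOA lower at -0.10 ± 0.03 (adjusted p = 0.00295) and ENO1 higher at 0.10 ± 0.03 (adjusted p = 6.24e-04).

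Phosphofructokinase, which commits sugar to glycolysis, is built from liver (PFKL), muscle (PFKM) and platelet (PFKP) subunits. PFKM rose from 19.9 ± 0.135 to 26.8 ± 1.20 CPM (mean ± SD, n = 3, 0.43 ± 0.10) and PFKL from 127 ± 6.41 to 154 ± 3.30 CPM (0.28 ± 0.05), whereas PFKP fell from 358 ± 12.0 to 319.9 ± 3.80 CPM (-0.16 ± 0.03, adjusted p = 4.13e-05). PFKM overlaps SENP1 in the annotation, and without a stated strand their shared reads cannot be told apart. PFKFB3 and PFKFB4 encode enzymes that set fructose 2,6-bisphosphate, the activator of phosphofructokinase. PFKFB1 and PFKFB2, of the same family, were not in the set. PFKFB2 fell (60.7 ± 2.99 to 49.4 ± 4.08 CPM, -0.30 ± 0.07, edgeR adjusted p = 1.56e-04), and PFKFB1 did not pass (0.25 ± 0.26). PFKFB4 rose (31.9 ± 2.13 to 40.4 ± 3.10 CPM, 0.34 ± 0.08, adjusted p = 4.69e-04). PFKFB3 had only 107 parental and 92 HCT116oxR counts and a 95% interval of -0.87 to 0.34, so that neither a rise nor a fall could be detected at this depth.

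In the later steps of the pathway PGK1, which makes the first ATP, stood at 332, 346 and 339 CPM in the parental libraries and 434, 414 and 413 CPM in the HCT116oxR libraries (1.24-fold, 0.31 ± 0.03, adjusted p = 1.28e-14). PKM, the gene of the pyruvate kinase that makes the last ATP, went the other way, at 2066, 2075 and 2131 CPM in the parental libraries and 1784, 1822 and 1795 CPM in the HCT116oxR libraries (-0.22 ± 0.03, adjusted p = 6.99e-13). For both genes the lines did not overlap, and gene counts do not separate the PKM1 and PKM2 splice forms. GAPDH, the dehydrogenase often used as a loading control, stood at 2736, 2748 and 2840.3 CPM in the parental libraries and 2889.7, 3009 and 2868 CPM in the HCT116oxR libraries, a rise of 5.30% (0.07 ± 0.02, adjusted p = 0.00834). Leaving out parental replicate 1 (0.06), parental replicate 2 (0.07) or HCT116oxR replicate 2 (0.05) ended that call.

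TPI1, the triose phosphate isomerase gene, was just past the threshold at 0.07 ± 0.03 (adjusted p = 0.0361). DESeq2 did not call it (0.07), nor did the test without a low-count filter (0.07) or leaving out parental replicate 1 (0.07), parental replicate 2 (0.06) or HCT116oxR replicate 2 (0.05). HK2, the inducible hexokinase that takes the first step, did not pass (95% interval -0.10 to 0.10), and neither did GPI (-0.05 to 0.08) or PGAM1 (-0.03 to 0.15). HK1, the hexokinase of most tissues, was listed with 0 counts in each of the 6 libraries, which allows up to 3 counts or 0.221 to 0.252 CPM in a library. How that entry was counted is not given in the sources used here, and no level was read from it.

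Summed over the 14 tested glycolytic enzyme genes, the level was 9798 ± 144 CPM in parental and 9889 ± 145 CPM in HCT116oxR cells (mean ± SD, n = 3 per line). The libraries of the lines overlapped. HK1, listed with 0 counts, adds nothing to this sum. The sum for the glucose transporters went from 107 ± 2.94 to 260.0 ± 9.81 CPM. The summed enzyme level thus differed by less than its SD, while the summed transporter level differed by many times its SD. In such sums long and abundant transcripts weigh most, so they describe reads and not molecules.

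**Figure D2:**
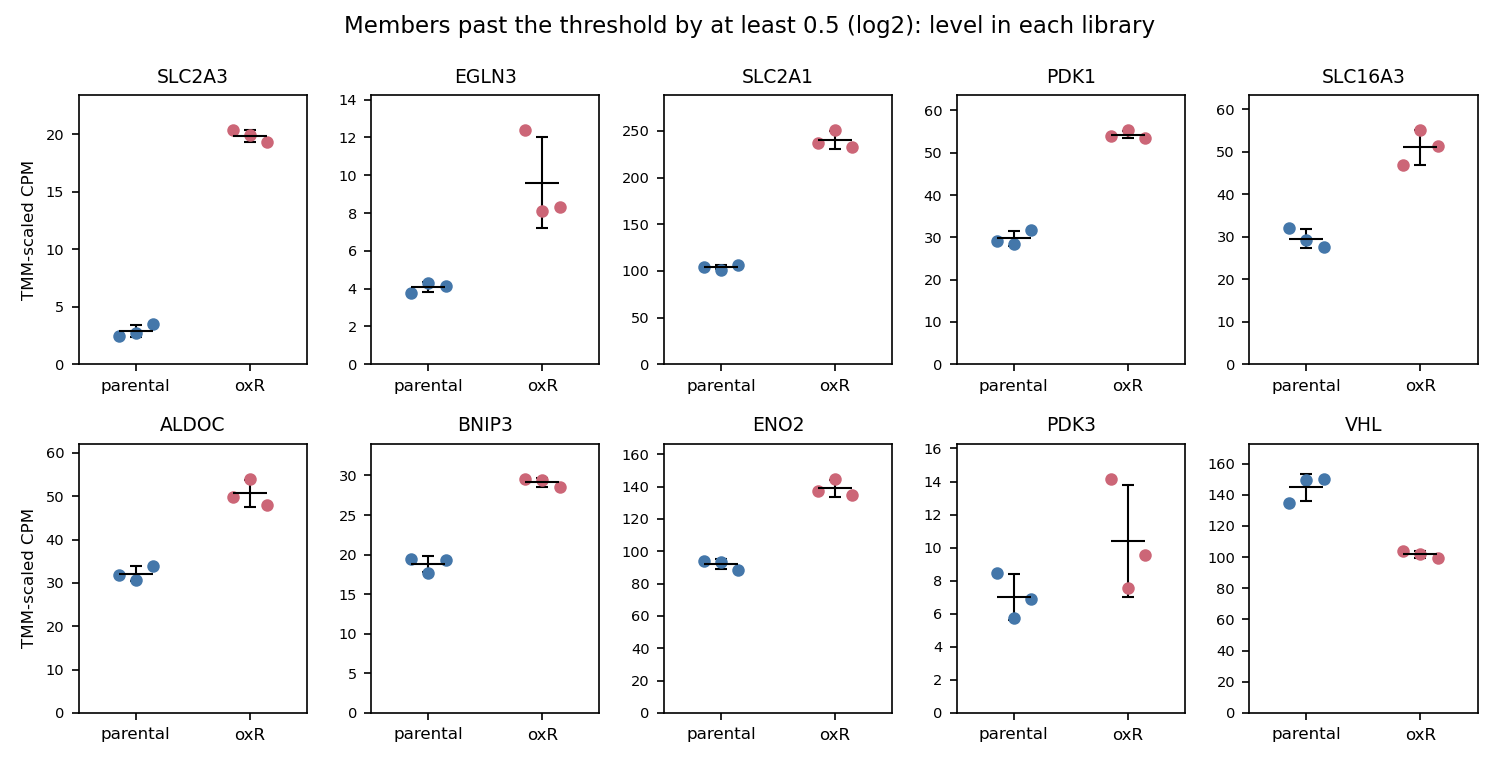
Level in TMM-scaled CPM (vertical axes, from 0) of the 10 genes that passed the threshold with a log2 change of at least 0.5, for 3 parental and 3 HCT116oxR libraries (points) with mean and SD (black). In every panel but PDK3 the lines are separate, and VHL alone is lower in HCT116oxR, at 104, 102 and 99.2 CPM.

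Genes that steer pyruvate and lactate rose in 4 of 6 cases, none fell, and the median log2 fold change was 0.44. Of these 6 genes 66.7% passed the threshold, against 44.1% of all tested genes (22.3% upward and 21.8% downward). PDK1 and PDK3 encode kinases that switch off pyruvate dehydrogenase and so hold pyruvate in the cytosol. PDK2 and PDK4, of the same family, were not in the set. PDK2 fell from 48.0 ± 2.56 to 40.9 ± 0.183 CPM (-0.23 ± 0.08, edgeR adjusted p = 0.00898), and PDK4 did not pass (0.39 ± 0.25). PDK1 stood at 29.2, 28.4 and 31.8 CPM in the parental libraries and 54.0, 55.4 and 53.6 CPM in the HCT116oxR libraries, 1.82-fold higher (0.87 ± 0.08, adjusted p = 1.53e-18). PDK3 stood at 8.45, 5.72 and 6.88 CPM in the parental libraries and 14.2, 7.54 and 9.53 CPM in the HCT116oxR libraries. Its lines overlapped, and HCT116oxR replicate 1 lay above the other libraries. PDK3 passed the threshold (0.57 ± 0.18, adjusted p = 0.00591), but the call was lost without HCT116oxR replicate 1 (0.27, adjusted p = 0.285) and without parental replicate 2 (0.44, adjusted p = 0.0547).

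SLC16A3 encodes MCT4, the lactate exporter of strongly glycolytic cells, and SLC16A1 encodes MCT1, which carries lactate both ways. SLC16A3 stood at 32.0, 29.1 and 27.5 CPM in the parental libraries and 46.8, 55.1 and 51.2 CPM in the HCT116oxR libraries, 1.73-fold higher (0.79 ± 0.08, adjusted p = 1.85e-15). SLC16A1 stood at 152, 160.3 and 148 CPM in the parental libraries and 165, 148 and 152 CPM in the HCT116oxR libraries, with overlapping lines and a 95% interval of -0.08 to 0.10 for the log2 fold change. SLC16A3 overlaps CSNK1D in the annotation, so that some reads could belong to that gene.

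Lactate dehydrogenase is a tetramer of LDHA and LDHB subunits. LDHA, a classic HIF target, stood at 1059, 1032 and 998 CPM in the parental libraries and 1068, 1095 and 1063 CPM in the HCT116oxR libraries. Every HCT116oxR library was above every parental library by a narrow margin, and the gene did not pass (0.06 ± 0.03, adjusted p = 0.0564), although it did without parental replicate 1 (0.08, adjusted p = 0.0316). LDHB rose from 429 ± 11.6 to 533 ± 17.0 CPM (1.24-fold, 0.31 ± 0.03, adjusted p = 1.44e-15).

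Ratios of related genes within a library need neither a scaling factor nor a gene length to be compared between the lines. Of 13 ratios that could be formed, 10 did not overlap between the lines. The share among other gene pairs was not worked out, and PFKL is in more than 1 ratio, so this count is a description only. Taken singly, 50.5% of all tested genes did not overlap. The smallest p that an exact 2-sided permutation test can give for 3 against 3 libraries is 0.1. It was reached by those 10 ratios, with an adjusted p of 0.13 over the 13 ratios, so none could pass a threshold of 0.05. The ratio of SLC2A3 to SLC2A1 counts was 0.0238, 0.0265 and 0.0327 in parental and 0.0858, 0.0794 and 0.0831 in HCT116oxR libraries, a 3.02-fold difference. The ratio of EGLN3 to EGLN1 differed 2.20-fold, that of SLC16A3 to SLC16A1 1.71-fold, that of ALDOC to ALDOA 1.68-fold and that of ENO2 to ENO1 1.41-fold. The ratio of LDHB to LDHA was 0.410, 0.403 and 0.439 in parental and 0.513, 0.470 and 0.505 in HCT116oxR libraries. In each of these pairs the first-named gene gained on the second in HCT116oxR. The ratio of EPAS1 to HIF1A also rose (1.29-fold) and did not overlap, whereas PFKP to PFKL and BNIP3L to BNIP3 were lower in HCT116oxR, at 0.738 and 0.789 times the parental ratio.

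**Figure D3:**
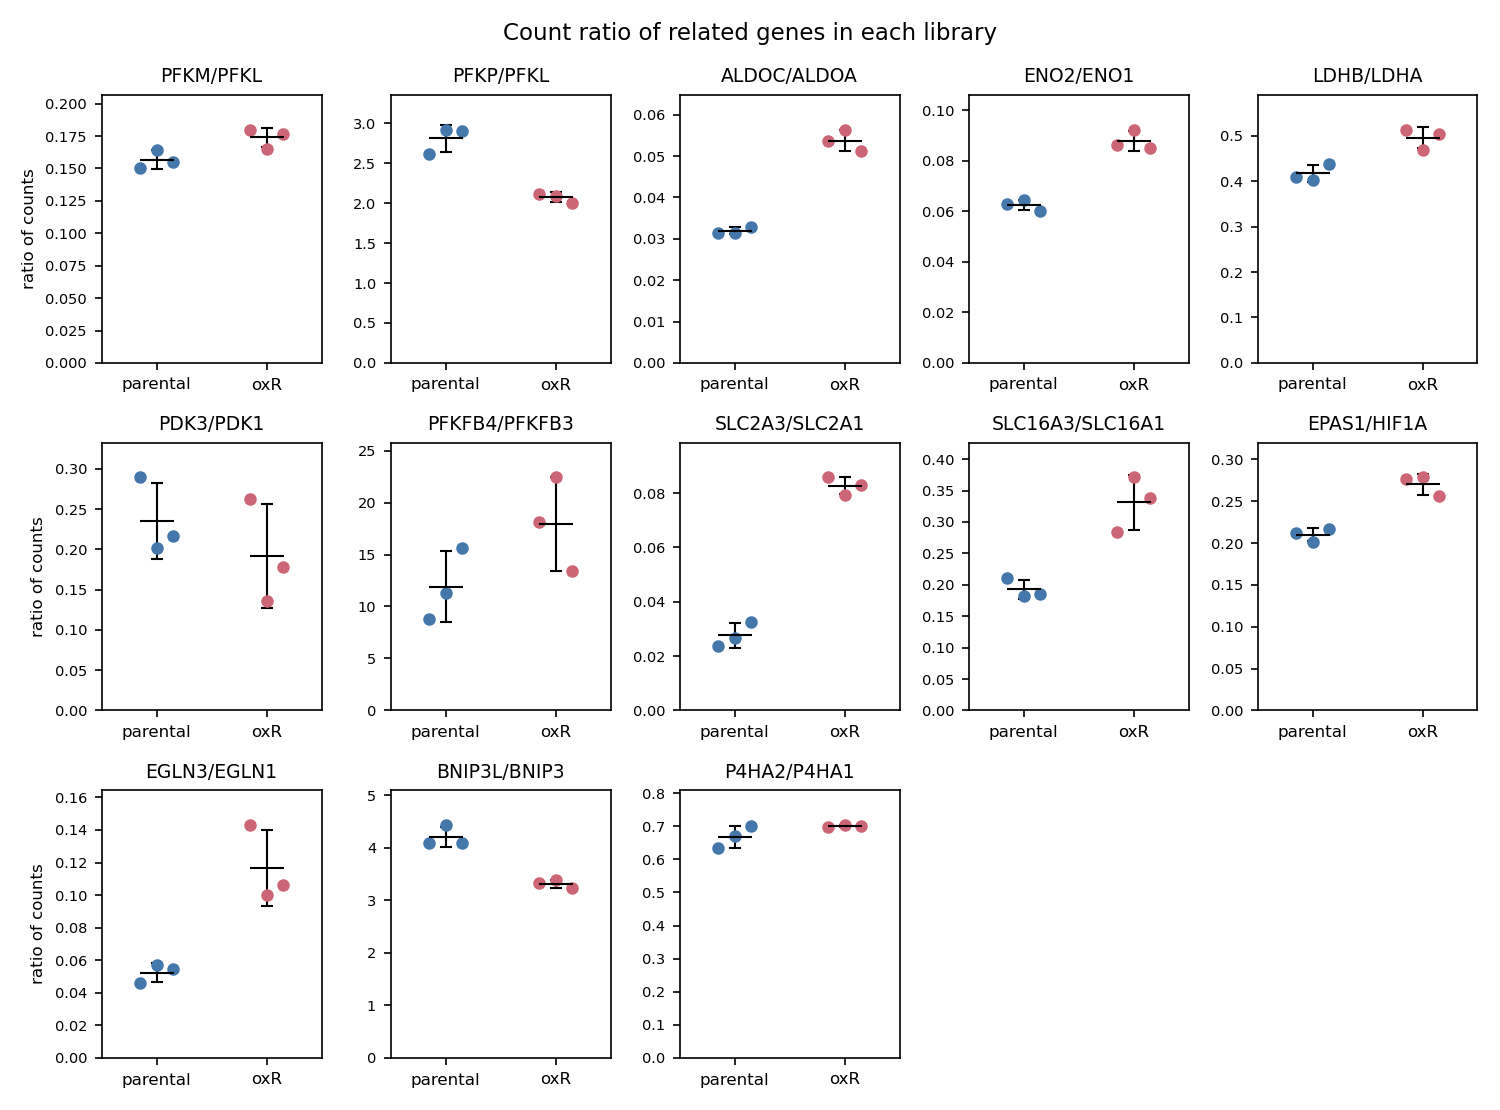
Ratio of the counts of 2 related genes in each of 3 parental and 3 HCT116oxR total RNA libraries (points), with mean and SD (black). The ratio of SLC2A3 to SLC2A1 differs the most between the lines (3.02-fold), and PDK3 to PDK1, PFKFB4 to PFKFB3 and P4HA2 to P4HA1 overlap between the lines.

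Of the 6 oxygen-sensing genes 2 rose, 2 fell and 2 did not pass. Thus 66.7% passed the threshold, against 44.1% of all tested genes (22.3% upward and 21.8% downward). EGLN3, a prolyl hydroxylase gene that is itself induced by HIF, stood at 3.77, 4.29 and 4.13 CPM in the parental libraries and 12.4, 8.13 and 8.31 CPM in the HCT116oxR libraries (2.37-fold, 1.24 ± 0.19, adjusted p = 2.46e-08). All HCT116oxR libraries were above all parental ones, with HCT116oxR replicate 1 the highest, and without it the value was 1.02. EGLN1, the main oxygen sensor of the family, stood at 82.5, 75.1 and 75.8 CPM in the parental libraries and 86.6, 81.0 and 78.2 CPM in the HCT116oxR libraries and did not pass (0.08 ± 0.06, adjusted p = 0.316). The pseudogene EGLN1P1 had 344, 309 and 316 counts in the parental and 423, 410 and 343 in the HCT116oxR libraries, so the EGLN1 counts are uncertain to that extent.

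VHL, the substrate adaptor of the ubiquitin ligase that removes HIF alpha subunits, stood at 135, 149.5 and 150.2 CPM in the parental libraries and 104, 102 and 99.2 CPM in the HCT116oxR libraries. Every HCT116oxR library was below every parental library, and VHL was the gene of the set with the largest fall (1.42-fold lower, -0.51 ± 0.05, adjusted p = 5.13e-17). HIF1A, the gene of the ubiquitous alpha subunit, stood at 298, 309 and 324 CPM in the parental libraries and 278, 280.2 and 283 CPM in the HCT116oxR libraries and fell slightly (-0.15 ± 0.04, adjusted p = 3.38e-04). EPAS1, which encodes HIF-2 alpha, stood at 63.2, 62.2 and 70.2 CPM in the parental libraries and 76.9, 78.0 and 72.4 CPM in the HCT116oxR libraries and rose slightly (0.22 ± 0.06, adjusted p = 0.00211). ARNT, the shared partner subunit, stood at 42.1, 38.9 and 39.7 CPM in the parental libraries and 39.5, 34.8 and 37.1 CPM in the HCT116oxR libraries and did not pass (95% interval -0.28 to 0.04). HIF alpha subunits are controlled mainly at the protein level, which was not measured.

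A last group holds targets of HIF that were not placed in the groups above. Other targets, such as LDHA and EGLN3, were counted there, as were the enzyme genes, of which 3 fell. Of this last group, 7 of 11 tested genes rose (63.6%, against 22.3% of all tested genes). None of the 11 fell (21.8% of all tested genes did), and their median log2 fold change was 0.29. BNIP3, which encodes a mitochondrial receptor for mitophagy, changed the most, at 19.5, 17.7 and 19.3 CPM in the parental libraries and 29.6, 29.4 and 28.5 CPM in the HCT116oxR libraries (1.55-fold, 0.63 ± 0.10, adjusted p = 8.71e-08). It overlaps PPP2R2D in the annotation. Its relative BNIP3L rose from 78.9 ± 0.618 to 96.7 ± 3.90 CPM (0.29 ± 0.06) and NDRG1, a stress-response gene, from 93.7 ± 0.692 to 126 ± 4.34 CPM (0.42 ± 0.05).

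The collagen prolyl hydroxylase genes P4HA1 (70.7 ± 3.71 to 83.5 ± 1.71 CPM, 0.24 ± 0.06) and P4HA2 (47.2 ± 0.862 to 58.6 ± 1.01 CPM, 0.31 ± 0.07) rose, and so did ADM, the gene of the vasodilator adrenomedullin (42.2 ± 2.48 to 52.1 ± 1.42 CPM, 0.31 ± 0.07). VEGFA, the angiogenic growth factor gene, stood at 93.5, 97.8 and 106 CPM in the parental libraries and 108, 119 and 113 CPM in the HCT116oxR libraries (14.5% higher, 0.20 ± 0.05, adjusted p = 0.00113). The lines were separate by a narrow margin for VEGFA. TPI1, PFKFB4, HIF1A, ANKRD37, PDK1 and P4HA2 also overlap other annotated genes (in turn SPSB2, UCN2, HIF1A-AS1 with HIF1A-AS2, LRP2BP with UFSP2, RAPGEF4-AS1, and P4HA2-AS1), with the same limit as for PFKM. Overlaps with small RNA genes, pseudogenes and uncharacterised loci are left aside. The histone demethylase gene KDM3A did not pass (-0.08 to 0.12), nor did MXI1, an antagonist of MYC (-0.42 to 0.54), or ANKRD37 (-0.41 to 1.07). MXI1 and ANKRD37 had 152 and 59 parental counts, and their intervals are too wide to exclude changes as large as those of the genes that rose.

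The carbonic anhydrase genes, which help acid-producing cells keep their pH, gave no call. CA9, a widely used marker of hypoxia, had 0, 0 and 3 counts in the parental and 4, 4 and 1 in the HCT116oxR libraries, all at or below 4 counts and near the detection limit in both lines. CA12 stood at 7.09, 6.31 and 6.96 CPM in the parental libraries and 6.49, 7.01 and 6.52 CPM in the HCT116oxR libraries, with overlapping lines and a 95% interval of -0.39 to 0.34.

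In the small RNA libraries miR-210-3p was examined because it is the miRNA best known as induced by HIF. Its mature sequence is shown 5′ to 3′ with the seed (bases 2 to 8) in capitals.
hsa-miR-210-3p (chr11:568112-568133, minus strand, GRCh38.p14, RefSeq): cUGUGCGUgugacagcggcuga
It stood at 644, 667 and 633 CPM in the parental libraries and 867, 801 and 835 CPM in the HCT116oxR libraries, with at least 10135 counts in every library. All HCT116oxR libraries were above all parental ones (1.29-fold, 0.36 ± 0.05, adjusted p = 1.31e-04 over 975 tested miRNAs, of which 44.7% passed and 23.5% passed upward). The passenger arm miR-210-5p had 41, 32 and 54 counts in the parental and 61, 65 and 78 in the HCT116oxR libraries and did not pass (0.51 ± 0.26, adjusted p = 0.125). The host transcript MIR210HG was listed with 0 counts in every total RNA library. As for HK1, how that entry was counted is not given, and no level was read from it.

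**Figure D4:**
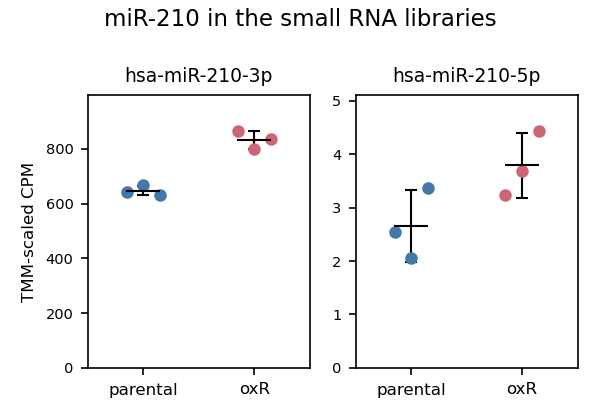
Level of the miR-210 arms in 3 parental and 3 HCT116oxR small RNA libraries (points, TMM-scaled CPM) with mean and SD (black). miR-210-3p is separate between the lines, at 633 to 667 CPM in parental and 801 to 867 CPM in HCT116oxR, and miR-210-5p overlaps.

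A gained or lost chromosome segment moves its genes together, so each gene was set beside its neighbours, the tested protein-coding genes that start within 1 Mb. For the 10 genes that passed with a log2 change of at least 0.5, the neighbours' median log2 fold change lay between -0.08 and 0.18 (between -0.14 and 0.14 within 2 Mb). SLC2A1 had 23 neighbours with a median of -0.08, SLC2A3 had 17 with -0.07 and VHL had 24 with 0.09. PDK1, on chromosome 2, had 9 with a median of 0.05.

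Within 1 Mb, ENO1, BNIP3L and NDRG1 were the genes of the set whose neighbours' median was beyond 0.2 in either direction. Within 2 Mb these were NDRG1 (0.70) and PFKP (-0.27, over 5 neighbours). NDRG1 lies on chromosome 8 (chr8:133237175-133297252) among 4 neighbours with a median of 0.75, above its own 0.42. BNIP3L (chr8:26383054-26413127) had 9 neighbours with a median of 0.39, against its own 0.29, and ENO1 had 12 with 0.25, against 0.10. Within 2 Mb the median was 0.06 around ENO1 and 0.18 around BNIP3L, both below the gene's own value, so for these the order depends on the window. NDRG1 stayed below the median of its neighbours in both windows, and for it a change of the gene and a change of the segment cannot be told apart. The same limit holds for PFKP, at -0.16, which had 2 neighbours within 1 Mb with a median of -0.14. TPI1 and GAPDH, at 0.07 each, had 40 neighbours within 1 Mb with a median of 0.06. The part of the segment in these small changes was not tested.

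**Figure D5:**
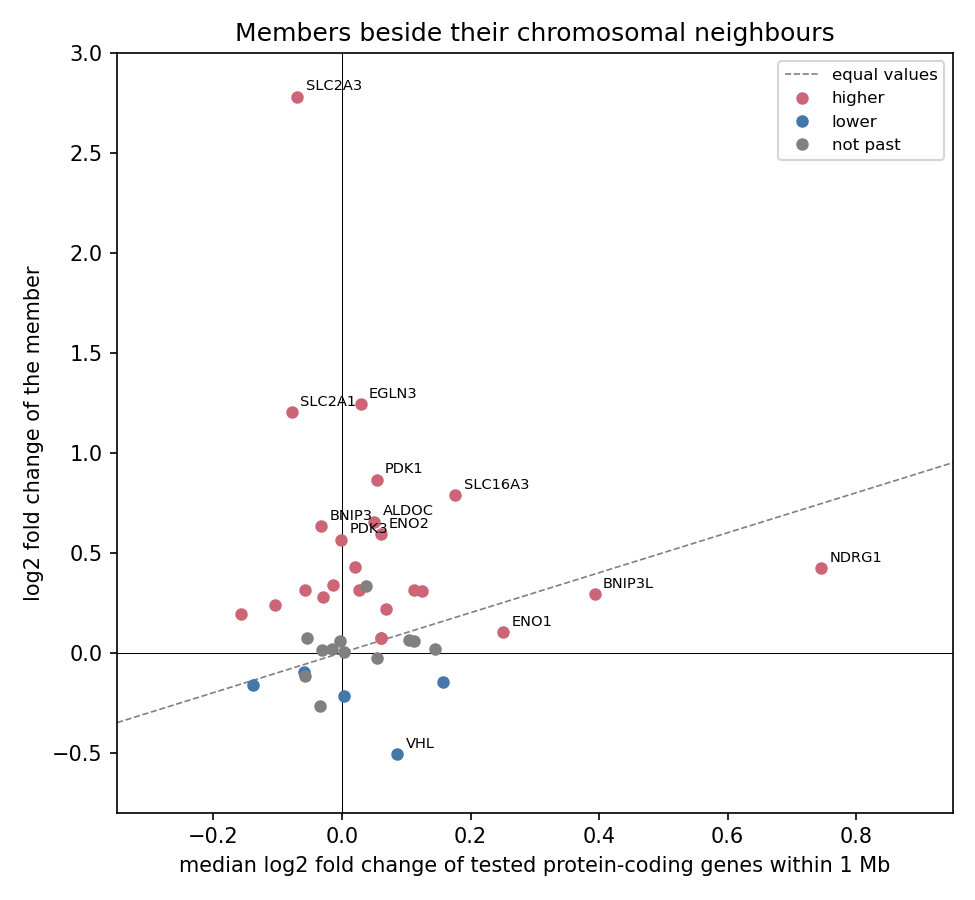
Log2 fold change of each tested gene of the set against the median log2 fold change of the tested protein-coding genes that start within 1 Mb, with the line of equal values dashed. SLC2A3, SLC2A1, EGLN3 and PDK1 stand far above the line, and NDRG1, BNIP3L and ENO1 lie below it in this window.

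Other genes of the same pathways were counted from lists drawn up from general knowledge, with earlier results of these data known. Of 36 tested genes around glycolysis, pyruvate and glycogen, 1 rose and 11 fell, with a median log2 fold change of -0.08. This is 33.3% past the threshold, against 44.1% of all tested genes. PDP1, a phosphatase that switches pyruvate dehydrogenase on, was the one that rose (969.7 ± 15.5 to 2410.2 ± 68.6 CPM, 1.31 ± 0.03). It lies on chromosome 8 among 11 neighbours with a median of 0.71. The genes that fell the most were GBE1, the glycogen branching enzyme (17.1 ± 2.86 to 8.64 ± 0.900 CPM, -0.99 ± 0.14), PC, the mitochondrial pyruvate carboxylase (-0.48 ± 0.13), PDHX, a structural subunit of pyruvate dehydrogenase (-0.43 ± 0.16), and ENO3, muscle enolase (-0.42 ± 0.12). ENO3 lies on chromosome 17 among 37 neighbours with a median of -0.42, equal to its own value. The PDHX call was lost without HCT116oxR replicate 1 (-0.27) and without parental replicate 3 (-0.41).

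Of 18 other tested regulators of HIF, 4 rose and 7 fell (61.1% past the threshold, against 44.1% of all tested genes), with a median of -0.05. ARNT2, a paralog of ARNT that is typical of neurons and can also pair with HIF alpha subunits, stood at 1.58, 1.43 and 0.971 CPM in the parental libraries and 7.08, 7.91 and 8.15 CPM in the HCT116oxR libraries (5.75-fold, 2.52 ± 0.26, adjusted p = 7.78e-16). ARNT2 was thus low in parental cells, and every HCT116oxR library was above every parental one. The chaperone genes HSP90AA1 (0.42 ± 0.02) and HSP90AB1 (0.36 ± 0.02) rose, as did the coactivator-binding CITED4 (0.89 ± 0.31), whose call did not hold without parental replicate 2 (0.73) or without HCT116oxR replicate 2 (0.67). CUL2, the cullin scaffold of the VHL ligase, fell (-0.30 ± 0.06), as did the coactivator EP300 (-0.22 ± 0.05), MTOR (-0.15 ± 0.05) and SIAH2 (-0.21 ± 0.07). The SIAH2 call was lost without parental replicate 1 (-0.18), HCT116oxR replicate 1 (-0.17) or HCT116oxR replicate 3 (-0.16).

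Of 39 other tested genes that respond to hypoxia, 17 rose and 9 fell, a share of 66.7% past the threshold against 44.1% of all tested genes, and the median was 0.18. RIMKLA (0.96 ± 0.28), CAV1, the caveolin gene (136 ± 4.78 to 240.1 ± 7.68 CPM, 0.82 ± 0.04), RAB20 (0.57 ± 0.16) and PPFIA4 (0.54 ± 0.12) rose the most. MAFF, a small MAF transcription factor gene (45.0 ± 1.52 to 20.9 ± 1.78 CPM, -1.11 ± 0.09), TMEM45A (-0.92 ± 0.20), STC2, the stanniocalcin 2 gene (173 ± 1.06 to 107 ± 3.67 CPM, -0.69 ± 0.05), and GPRC5A (-0.57 ± 0.04) fell the most. These genes thus moved in both directions.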

How the data were processed

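Raw counts per gene (total RNA) and per mature miRNA (small RNA) were deposited by the authors for 3 parental and 3 HCT116oxR libraries of each kind. Reads were aligned to GRCh38 with HISAT2 (total RNA) and BWA (small RNA), per the submitters' processing notes. Tool versions, the counting tool, its annotation, strandedness and the handling of multi-mapping reads were each not given in the sources used here.

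Total counts were 11950069 to 13558077 (total RNA) and 16089595 to 18147051 (small RNA). PCR duplicates cannot be removed from counts, so limits cover counting error only. Libraries of a line differed by more than sampling noise (the lowest chi-square per degree of freedom was 2.24), so none was taken for a library deposited again, and each was counted as 1 replicate as labelled.

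Tests used edgeR 4.0.16 in R 4.3.3, with filterByExpr (minimum count 10, minimum total 15), TMM scaling, and the robust quasi-likelihood F test, 2-sided, with Benjamini-Hochberg adjustment over all tested features and a threshold of 0.05. CPM are TMM-scaled over the tested features' counts. SE was derived by dividing the size of the log2 fold change by the root of F, and intervals are 95%. The test was checked on simulated data with changes of at least 2-fold, so the check does not cover the smaller changes reported here. Positions are those of the RefSeq gene table (GRCh38.p14), which matched 47825 of 54261 symbols and all 43 genes of the set. For 17 of the 43 genes, pseudogene or near-identical copies are in the table, and in 15 of these the copies held under 5% of the gene's counts.

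Values in each library are given for genes past the threshold by at least 0.5 (log2) and for HIF1A, EPAS1, ARNT, VHL, EGLN1, VEGFA, CA9, CA12, LDHA, PGK1 and GAPDH. The values of PKM, SLC16A1 and ARNT2 in each library were added after they were seen. From each of the other lists, up to 4 genes in each direction were named if they passed, averaged a log2 CPM of 1 or more and did not overlap between the lines. PFKFB1, PFKFB2, PDK2 and PDK4 were named besides, as relatives of genes of the set, after their values were seen. Ratios of HK2 to HK1 and of CA12 to CA9 were not formed because of counts of 0. The genes and lists were chosen with earlier results of these data known. Alternatives were DESeq2 1.42.0, RLE size factors, no low-count filter, leaving out each library, a replicate block and a neighbour window of 2 Mb.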

Additional observations from a re-analysis of the deposited data

How the results depend on the processing

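Between 21 and 24 genes of the set rose and 5 fell under every alternative run, and the genes past the threshold numbered 6994 to 7728 over all tested genes, against 7721 in the reported test. Of the 41 tested genes, 31 kept their direction and their side of the threshold throughout. miR-210-3p did so too, at 0.35 to 0.43. Direction reversed for genes that had not passed: HK2 stood at -0.00146 with DESeq2 and -0.00176 without the low-count filter, and leaving out 1 library gave -0.0301 to 0.0272 for HK2. Leaving out 1 library gave -0.00717 to 0.0365 for GPI, -0.0758 to 0.00649 for CA12, -0.108 to 0.322 for MXI1, -0.554 to 0.00126 for PFKFB3 and -0.0317 to 0.0434 for SLC16A1. The cause of these changes was not tested. The median log2 fold change of all genes stayed between -0.00380 and 0.00142. Replicate numbers did not pair the cultures (correlations of deviations of same-numbered libraries were -0.027 to -0.007). With a replicate block 7565 genes passed, 23 genes of the set were higher and 5 lower, and among the set the block changed the call of TPI1 alone (0.07, adjusted p = 0.0737). A neighbour window of 2 Mb in place of 1 Mb moved the neighbours' median from 0.25 to 0.06 for ENO1 and from 0.39 to 0.18 for BNIP3L, which took both below the gene's own value. Depth limits ANKRD37, PFKFB3, MXI1, CA9 and miR-210-5p.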

Other observations

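Another gene of the hexokinase family, which was in none of the lists and was chosen after its values were seen, changed far more than HK2. HKDC1 had 171, 196 and 166 counts in the parental and 22, 25 and 11 in the HCT116oxR libraries. Its mean level (± SD over 3 libraries) fell from 14.3 ± 1.93 to 1.46 ± 0.504 CPM, a log2 fold change of -3.26 ± 0.21 (edgeR, adjusted p = 3.07e-28), and every HCT116oxR library lay below every parental library. HK3 had 11, 5 and 8 counts in the parental and 17, 13 and 14 in the HCT116oxR libraries and did not pass (0.81 ± 0.51, adjusted p = 0.206).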
